A study of Mus musculus with 6 samples.

Results

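The mouse genome holds 39 protein-coding Hox genes in 4 clusters, and all 39 were found among the 49328 genes of the deposited table by matching Ensembl identifiers to the GENCODE M21 annotation of GRCm38. The members were taken by name alone (Hoxa, Hoxb, Hoxc or Hoxd followed by a number, without antisense genes). This rule uses no measured value, but it was set with earlier results of these data known. Expression had been measured by RNA sequencing of total RNA from 6 libraries of mesenchymal stromal cells (MSCs), the plastic-adherent stroma of bone marrow. The donors of the marrow were CB6F1 mice that had aGVHD, acute graft-versus-host disease, an attack of transplanted immune cells on the recipient. Unsorted marrow was digested, and the cells were cultured in DMEM rich in glucose, with FBS and P/S. In culture, 3 samples received a compound labelled R at 0.5 um (unit as labelled) and 3 received its vehicle, DMSO. Every sample therefore carried the disease background, and no cells of healthy mice were analysed here. The sources used here do not say what R is, how long it was applied, which bones gave the marrow or how old the mice were.

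Hox genes encode homeodomain transcription factors. Within a cluster they lie in the order of their numbers, and low-numbered genes are active towards the head of the embryo while high-numbered genes add on towards the tail and the tips of the limbs. Genes with the same number in different clusters are paralogues and share much of their function. Adult fibroblasts and marrow stroma keep part of the pattern of the place they came from, which is why the set of active Hox genes is read as a positional code. Blood-forming cells use Hox genes too, chiefly of the Hoxa and Hoxb clusters, in stem and progenitor cells.

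Before the levels, the promoters of 4 members show what lay upstream of active and silent members. RefSeq promoter sequence on GRCm38.p6 was matched by symbol for 22 of the 39 members. Where several start sites were listed, the one nearest the outermost start of the GENCODE gene model was taken. Whether these cells used that start was not tested. The 250 bases before the start site are printed 5′ to 3′ on the strand of the gene, with each CG dinucleotide, the base pair step at which DNA is methylated, in capitals. Hoxa5 and Hoxa10 had measurable transcripts in every library, and Hoxd13 and Hoxd11 were at 0 in every library.
Hoxa5, chr6:52204588-52204837, minus strand: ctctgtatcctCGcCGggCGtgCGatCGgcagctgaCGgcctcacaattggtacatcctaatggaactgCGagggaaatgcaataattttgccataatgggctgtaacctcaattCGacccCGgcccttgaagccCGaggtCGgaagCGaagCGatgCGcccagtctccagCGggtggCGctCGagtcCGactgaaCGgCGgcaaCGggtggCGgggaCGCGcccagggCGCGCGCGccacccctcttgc
Hoxa10, chr6:52240855-52241104, minus strand: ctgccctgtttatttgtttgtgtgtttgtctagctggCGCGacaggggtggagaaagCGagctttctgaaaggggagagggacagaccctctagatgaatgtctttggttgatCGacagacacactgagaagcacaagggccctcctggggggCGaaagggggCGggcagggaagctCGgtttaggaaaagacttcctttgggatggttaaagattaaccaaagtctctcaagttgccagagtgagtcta
Hoxd13, chr2:74667975-74668224, plus strand: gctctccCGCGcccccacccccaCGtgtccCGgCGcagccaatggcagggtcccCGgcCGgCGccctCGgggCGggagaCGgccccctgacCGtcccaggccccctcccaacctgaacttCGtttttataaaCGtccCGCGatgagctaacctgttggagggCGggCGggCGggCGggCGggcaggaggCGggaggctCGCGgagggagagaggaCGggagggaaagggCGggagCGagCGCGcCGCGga
Hoxd11, chr2:74679308-74679557, plus strand: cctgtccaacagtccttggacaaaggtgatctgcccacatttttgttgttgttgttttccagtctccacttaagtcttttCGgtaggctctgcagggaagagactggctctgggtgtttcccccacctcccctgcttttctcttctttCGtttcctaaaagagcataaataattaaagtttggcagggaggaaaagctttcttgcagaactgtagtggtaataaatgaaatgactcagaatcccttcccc

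High and low CG counts occurred in the chosen windows of active and silent members alike. The Hoxa5 promoter held 28 CG and the Hoxa10 promoter 7, while the silent Hoxd13 held 31 and the silent Hoxd11 held 2. The median was 10.5 CG (3 to 28) over the 8 matched members that were tested, 12.5 (6 to 35) over 6 members with low values and 11 (2 to 31) over 8 members at 0 or under 3 reads. Across all 32851 promoters of the table the median was 6, and 37.8% held at least 10 CG. The bipartite motif TGATNNAT, bound by Hox proteins together with Pbx partners, was searched on both strands. It occurred once each in the windows of Hoxa2, Hoxb8 and Hoxb1 and in 7.68% of all promoters.

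The clusters also hold microRNA genes whose products are known to target Hox transcripts. Their mature sequences from RefSeq are printed with the seed, bases 2 to 8, in capitals. They form 2 seed families, and within a family the members differ only outside the seed.
miR-196a-5p: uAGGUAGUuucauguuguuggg
miR-196b-5p: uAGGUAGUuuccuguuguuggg
miR-10a-5p: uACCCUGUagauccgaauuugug
miR-10b-5p: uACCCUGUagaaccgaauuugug

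The base sequence complementary to the miR-196 seed, ACTACCT, occurred in an annotated 3′ UTR of 9 of 39 Hox genes (23.1%) and of 6.55% of the 21020 genes with an annotated 3′ UTR. Among them were Hoxa4, Hoxa5, Hoxa7, Hoxa9, Hoxb1, Hoxb6, Hoxb7 and Hoxc8, and Hoxa5, Hoxa7 and Hoxa9 were high enough here to be tested. Hoxa7 carried 4 such sites, the most among the members, and Hoxc8 carried 2. The 4 sites of Hoxa7 are printed with the seed match in capitals.
Hoxa7 site 1: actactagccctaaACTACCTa
Hoxa7 site 2: ggcacagccaaaatACTACCTa
Hoxa7 site 3: agaggcactcccaaACTACCTa
Hoxa7 site 4: aaaccatgatcaatACTACCTa

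The match to the miR-10 seed, ACAGGGT, occurred in 4 of 39 Hox genes (10.3%), among them Hoxa3, Hoxb3 and Hoxd1, and in 13.1% of all genes with a 3′ UTR. No value was found for Mir196a-2, the miR-196a gene of the Hoxc cluster. The host genes Mir10b, Mir196a-1 and Mir196b were at 0 in all 6 libraries, and Mir10a had 4 reads in R replicate 3 and 2 reads in vehicle replicate 1. The 0 of Mir196b is uncertain, since it shares bases with an exon of Hoxa9 on the same strand. A counter that drops shared reads would lose them. These values describe the hairpin genes, and mature microRNAs were not measured.

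Levels are FPKM, fragments scaled to gene length and to the reads of the library, so genes of different length can be compared. Depth was estimated at 17070000 to 21750000 reads, and 3 reads of a gene as long as Hoxd13 correspond to 0.0556 to 0.0708 FPKM. Between 13 and 17 members reached 1 FPKM in a library: 13, 16 and 15 in R replicates 1, 2 and 3 and 13, 13 and 17 in vehicle replicates 1, 2 and 3. Of the 39 members, 15 were tested because they had at least 1 FPKM in at least 3 libraries, a condition that 50.8% of all protein-coding genes met. Another 15 were present at lower values, Hoxd10 had a single read in vehicle replicate 1, and 8 were at 0 in every library.

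Most active members came from the Hoxa and Hoxc clusters. In Hoxa (chromosome 6) 7 of 11 members were tested and in Hoxc (chromosome 15) 7 of 9, against 1 of 10 in Hoxb (chromosome 11) and 0 of 9 in Hoxd (chromosome 2). Summed over its members, Hoxc held 44.1% to 48.7% of all Hox FPKM in the R libraries and 46.2% to 54.1% in the vehicle libraries. Hoxa held 39.1% to 48.7% in R and 37.9% to 44.4% in vehicle. Hoxb held no more than 9.61% and Hoxd no more than 3.26% of the Hox FPKM in a library. This division by cluster was present in both groups.

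**Figure D1:**
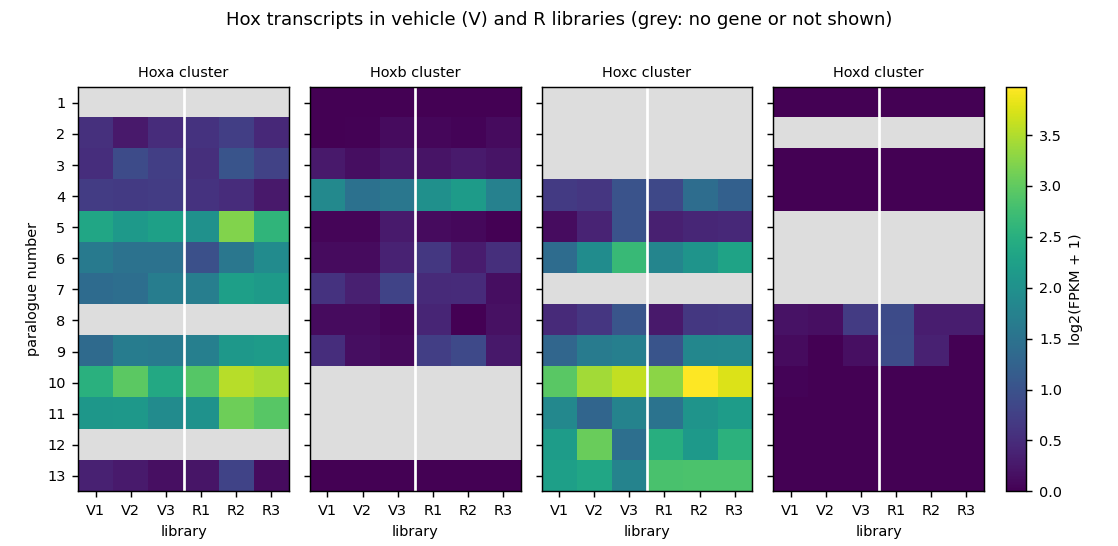
Level of the Hox genes (colour, log2(FPKM + 1)) in the 3 R and 3 vehicle libraries, ordered by cluster and number. The Hoxa and Hoxc clusters hold 14 of the 15 tested members, and every Hoxd gene is below 1 FPKM in every library. Grey marks numbers with no gene or no value shown.

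Hoxc10, a lumbosacral and hindlimb patterning gene, had the highest level of all Hox genes in 6 of 6 libraries. It stood at 8.74, 14.65 and 12.58 FPKM in R replicates 1, 2 and 3 and at 6.75, 9.64 and 11.20 FPKM in vehicle replicates 1, 2 and 3. Its paralogue Hoxa10, also needed for the development of the uterus and for normal blood formation, stood at 6.54, 10.70 and 9.97 FPKM in R and at 4.73, 6.79 and 4.26 FPKM in vehicle. Hoxa10 came next in 4 libraries. In vehicle replicate 2 that place went to Hoxc12 at 7.35 FPKM, and in vehicle replicate 3 to Hoxc6 at 5.40 FPKM. The paralogue Hoxd10 had at most 1 read.

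High-numbered Hoxc genes were active up to the end of the cluster. Hoxc11, Hoxc12 and Hoxc13 lie next to Hoxc10 in that order, and Hoxc13, a gene required for hair and nails, is the last of the cluster. Hoxc12 ranged from 1.75 to 7.35 FPKM among the vehicle libraries alone, with 36 to 142 reads. In the Hoxa cluster the levels stopped one gene short: Hoxa11, which patterns the forearm and shank and, in the adult, marks limb stroma, was at 2.78 to 7.54 FPKM, while Hoxa13, a gene of hand and foot, was at 0.0895 to 0.742 FPKM with 4 to 33 reads.

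Middle and low members of Hoxc were mixed, while in Hoxa every member from Hoxa5 to Hoxa11 was high enough to be tested. Hoxa5, a regulator of lung and axial skeleton development, had 3.01 to 8.32 FPKM. Its neighbours Hoxa2, Hoxa3 and Hoxa4 did not exceed 1.05 FPKM. In Hoxc, Hoxc6 had 1.63 to 5.40 FPKM while Hoxc5 and Hoxc8 beside it exceeded 1 FPKM only in vehicle replicate 3, at 1.02 and 1.06 FPKM. Reads of Hoxc5 are uncertain because its gene model spans that of Hoxc6 and begins inside that of Hoxc10.

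The Hoxb cluster had one member above 1 FPKM. Hoxb4, known for expanding blood stem cells when overexpressed, stood at 2.99, 3.51 and 2.35 FPKM in R and at 2.65, 1.79 and 1.99 FPKM in vehicle. The groups overlapped. Hoxb2, Hoxb3, Hoxb5, Hoxb6, Hoxb7, Hoxb8 and Hoxb9 did not exceed 0.842 FPKM, and Hoxb1 and Hoxb13 were at 0.

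In the Hoxd cluster more than 1 read was found only for a pair of adjacent genes. Hoxd1, Hoxd3, Hoxd4, Hoxd11, Hoxd12 and Hoxd13 were at 0 in every library. Hoxd8 had 0.871, 0.243 and 0.242 FPKM in R and 0.149, 0.117 and 0.619 FPKM in vehicle. Hoxd9 had 0.904, 0.286 and 0 FPKM in R and 0.0823, 0 and 0.117 FPKM in vehicle. Both were highest in R replicate 1, with 52 reads of Hoxd8 and 42 of Hoxd9. For Hoxd3 and Hoxd4 a value of 0 is uncertain, since 62.3% and 52.3% of their exon bases are shared with each other or with the overlapping gene model Gm28230, and a counter that drops shared reads would lose them.

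**Figure D2:**
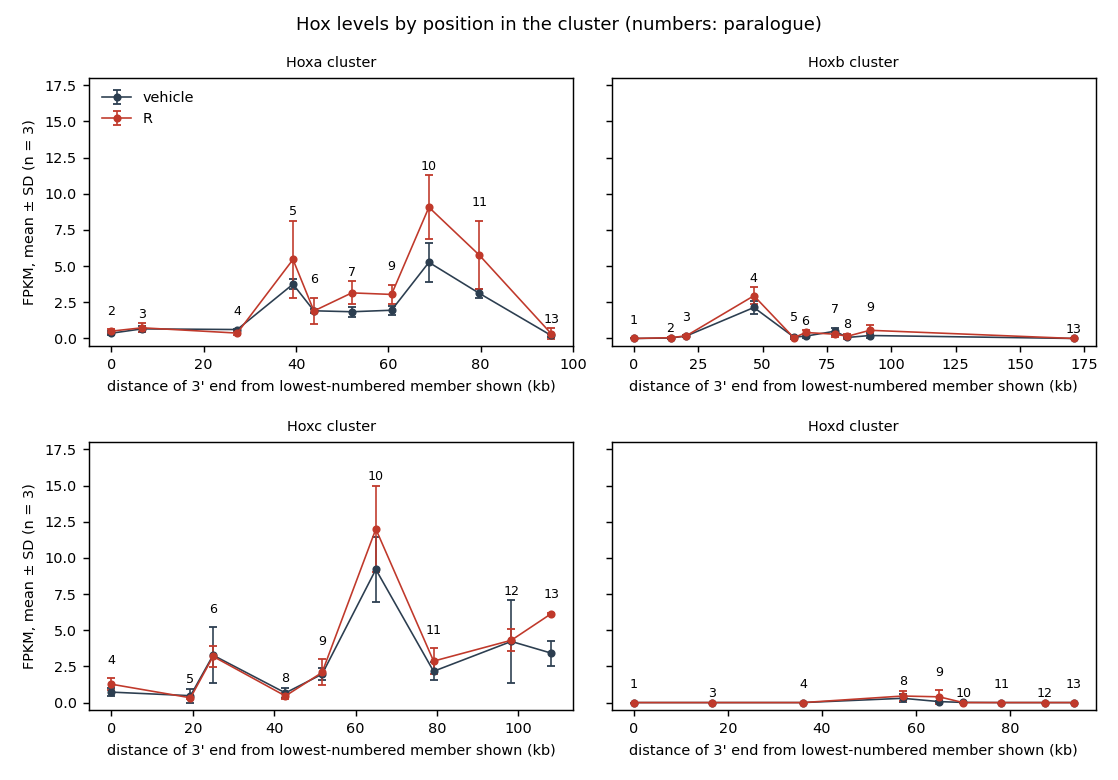
Mean FPKM of Hox genes in R and vehicle (3 libraries each) against the distance of its 3′ end from that of the lowest-numbered member shown for its cluster, in kb. Error bars are the SD, and the number above a point is that of the gene. In Hoxa the means from Hoxa5 to Hoxa11 are all above 1 FPKM, and those shown on either side are below. In Hoxc lower genes lie between higher ones, and the Hoxd means are below 1 FPKM along its length.

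Limb factors and cell type markers outside the clusters were read as well, and the place of origin of the cells was not tested. Of the factors that tell the limbs apart, Pitx1, a hindlimb determinant, had 4.95, 9.61 and 8.46 FPKM in R and 3.49, 7.23 and 7.45 FPKM in vehicle. Tbx5, the forelimb determinant, was at 0 in all 6 libraries, and the hindlimb gene Tbx4 did not exceed 0.0172 FPKM. Of 14 stromal markers 9 were high enough to be tested, with Col1a1 and Cxcl12 among them, but Lum was at 0 in 5 libraries, and Dcn and Lepr did not exceed 0.321 and 0.220 FPKM. The labelled cell type was therefore only partly matched. Macrophage markers were far more abundant, with Lyz2 at 8707 to 12885 FPKM. Markers of blood stem and progenitor cells were low except for Cd48 and Procr and, under 4 FPKM, Cd34 and Gata2: Flt3 was at 0 in all libraries and Kit did not exceed 0.156 FPKM.

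The comparison of R with vehicle asked whether the compound moved the Hox levels. Of the 15 tested members, Hoxc13 alone passed the threshold, an adjusted p of 0.05 in limma, and it rose. No member fell, and 14 did not pass. Among all 11862 tested genes 2.39% were called higher, 4.43% lower and 6.82% in either direction, so that 1 of 15 is near the background. At an unadjusted p of 0.05 in limma 5 members passed, all higher in R (Hoxc13, Hoxa10, Hoxa7, Hoxa9 and Hoxa11), against 11.4% of all tested genes in that direction and 24% in either.

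Hoxc13 stood at 6.07, 6.15 and 6.21 FPKM in R (325, 272 and 276 reads) and at 3.71, 4.10 and 2.44 FPKM in vehicle (156, 189 and 120 reads). All R libraries lay above all vehicle libraries, and the R libraries were close to each other while vehicle replicate 3 was lowest. The means were 6.14 ± 0.0670 and 3.42 ± 0.870 FPKM (SD, n = 3), and the log2 change on the log2(FPKM + 1) scale was 0.71 (SE 0.15, limma adjusted p = 0.0391). The call ended when any of 5 of the 6 libraries was left out (limma adjusted p of 0.0502 to 0.102) and held without vehicle replicate 3 (0.0305). It also ended when genes of low level were not filtered out (limma adjusted p = 0.116).

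Hoxa7 and Hoxa9 did not overlap between the groups either, with R higher. Hoxa7 had 2.24, 3.73 and 3.48 FPKM in R and 1.61, 1.71 and 2.22 FPKM in vehicle (log2 change 0.53, SE 0.17, limma adjusted p = 0.116). Its lowest R library and its highest vehicle library were nearly equal. Hoxa9, a regulator of blood progenitors and of the axial skeleton, had 2.28, 3.32 and 3.53 FPKM in R and 1.60, 2.16 and 2.10 FPKM in vehicle (log2 change 0.45, SE 0.16, limma adjusted p = 0.139). In all, 3 of 15 members had every R library above every vehicle library, against 13.9% of all tested genes, and 0 of 15 had every R library below, against 15.5%.

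Hoxa10 and Hoxa11 had larger differences but wider spread. Hoxa10 had a log2 change of 0.68 (SE 0.21, limma adjusted p = 0.103), and its lowest R library, 6.54 FPKM, lay below the highest vehicle library, 6.79 FPKM. Hoxa11 stood at 3.08, 7.54 and 6.68 FPKM in R and at 3.28, 3.31 and 2.78 FPKM in vehicle (log2 change 0.65, SE 0.27, limma adjusted p = 0.195). R replicate 1 lay within the vehicle range and the other R libraries were well above it. Without R replicate 1, Hoxa11 passed the threshold (log2 change 0.98, limma adjusted p = 0.0133) and Hoxc13 did not (0.0954). Reads of Hoxa11 may include its antisense gene Hoxa11os, which covers 35.0% of its exon bases, because the strandedness of the libraries is not given.

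**Figure D3:**
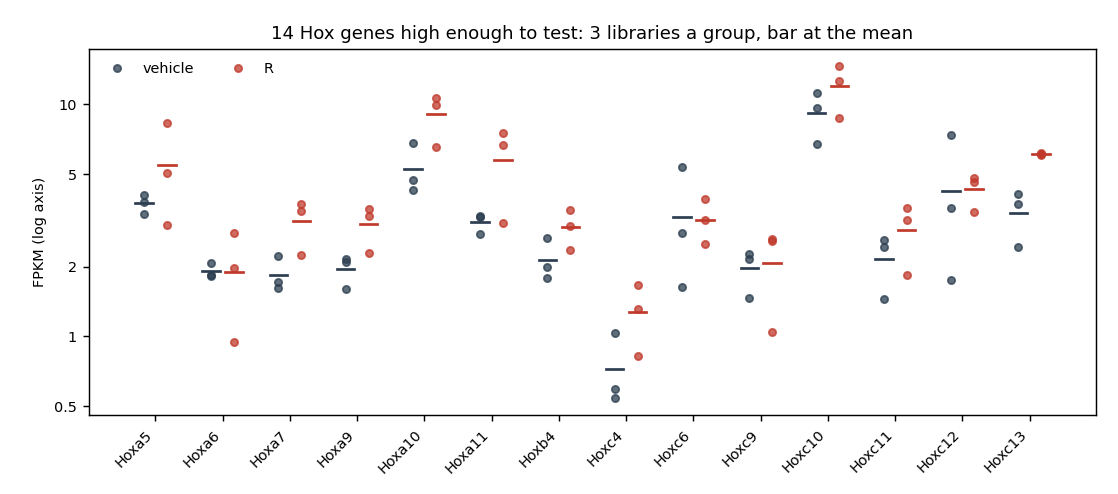
FPKM (log axis) of 14 tested Hox genes, with a point for each library and a bar at the mean of each group of 3. Hoxc13, Hoxa7 and Hoxa9 have every R point above every vehicle point, and the other 11 shown overlap.

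The other 10 tested members did not pass. Hoxc10 had a log2 change of 0.35 (SE 0.22, limma adjusted p = 0.40), with R and vehicle overlapping between 8.74 and 11.20 FPKM. Hoxa5 had 3.01, 8.32 and 5.04 FPKM in R and 4.09, 3.38 and 3.78 FPKM in vehicle, and the low and high extremes were both R libraries. Hoxc12 had 4.64, 3.45 and 4.83 FPKM in R and 3.58, 7.35 and 1.75 FPKM in vehicle, so that its extremes were both vehicle libraries.

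Hoxc6 behaved likewise, with 2.50, 3.16 and 3.91 FPKM in R inside a vehicle range of 1.63, 2.79 and 5.40 FPKM. Hoxc11 had 1.84, 3.16 and 3.59 FPKM in R and 2.61, 1.45 and 2.42 FPKM in vehicle. Hoxc9 had 1.04, 2.59 and 2.62 FPKM in R and 1.47, 2.15 and 2.26 FPKM in vehicle. All of these overlapped, and Hoxc9 was close to equal in the groups (log2 change 0.02, SE 0.24).

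The lowest tested members also overlapped between the groups. Hoxa6 had 0.947, 1.97 and 2.79 FPKM in R and 2.08, 1.83 and 1.83 FPKM in vehicle, and its log2 change of -0.06 was the only negative one among the tested members. Hoxc4 had 0.824, 1.67 and 1.31 FPKM in R and 0.593, 0.540 and 1.03 FPKM in vehicle, the lowest level of the 15. Among the members too low to be tested, the groups stood apart only in Hoxa4, with 0.490, 0.419 and 0.208 FPKM in R and 0.625, 0.603 and 0.627 FPKM in vehicle, on 6 to 20 reads. Of the 31 members above 0 in at least 1 library, 3 had every R library above every vehicle library and 1 below, against 9.21% and 10.2% of all genes chosen the same way.

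Most tested members differed in the same direction, though Hoxc13 alone passed. The log2 change was above 0 in 14 of 15, against 49.3% of all tested genes, and its median was 0.35 against -0.0037 over all tested genes. The members share clusters and libraries and are not independent, so the count is a description. Summed over all 39 members, Hox levels were 54.4, 81.0 and 73.9 FPKM in R and 45.1, 53.4 and 53.1 FPKM in vehicle. The sums did not overlap, but R replicate 1 exceeded the highest vehicle library only narrowly. R replicate 1 was the lowest R library in 12 of the 15 tested members, while each vehicle library was the lowest of its group in 5.

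**Figure D4:**
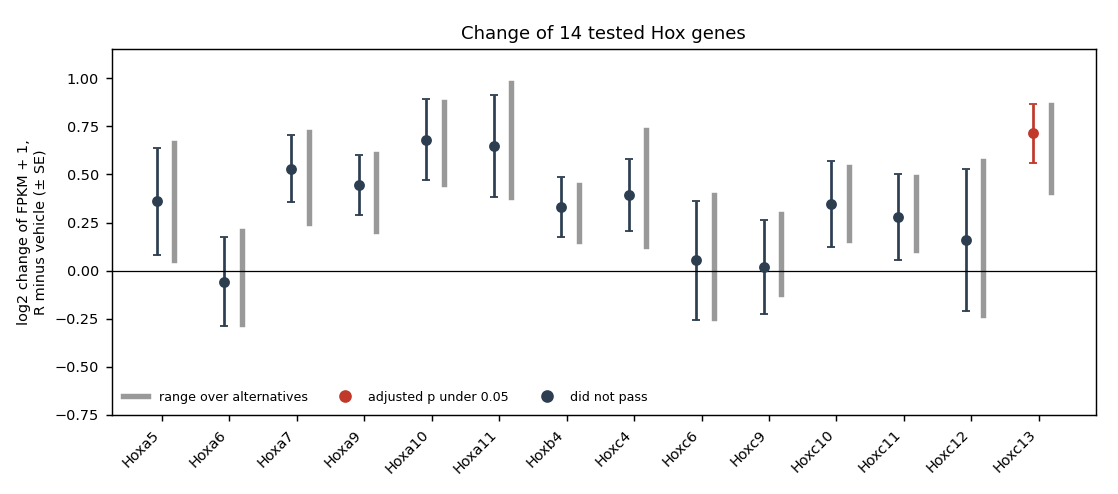
Difference of R from vehicle in log2(FPKM + 1) for 14 tested Hox genes, with its standard error as bars and its range over the alternative settings as a grey line. Of the genes shown, Hoxc13 alone passed the threshold and Hoxa6 alone lies below 0.

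Markers of other cell types moved with the groups, and their part in the Hox differences was not tested. In bulk samples fewer cells of a type and less RNA per cell cannot be told apart. All 15 macrophage markers were tested: 3 (Itgam, Aif1 and Msr1) fell, against 4.43% of all tested genes, and 0 rose. The log2 change was below 0 in 14 of the 15, with a median of -0.49, and 10 had every R library below every vehicle library, against 15.5% of all tested genes. Their summed level, most of it Lyz2, was 13440 to 16990 FPKM in R against 16393 to 21684 FPKM in vehicle. Of the 7 smooth muscle and pericyte markers 5 were tested and 2 (Tagln and Cspg4) rose, against 2.39% of all tested genes. Of the 5 tested, 4 had every R library above every vehicle library, against 13.9% of all tested genes. The list summed to 424 to 756 FPKM in R against 134 to 420 FPKM in vehicle. Of the 9 tested stromal markers 0 passed in limma (3 at an unadjusted p of 0.05), and their median log2 change was -0.22, with 5 of 9 below 0 (Pdgfra, Col3a1, Eng, Vcam1 and Cxcl12). Pdgfrb, Col1a1 and Prrx1, 3 of the 9, had every R library above every vehicle library, against 13.9% of all tested genes. Dcn and Thy1, 2 of the 14 listed and too low to be tested, had every R library below. That held for 10.2% of all genes above 0 in at least 1 library. All 14 summed to 646 to 1058 FPKM in R against 361 to 728 FPKM in vehicle, most of it from Col1a1 and Col1a2. The 8 endothelial markers, of which 1 was tested and 0 passed in limma (1 at an unadjusted p of 0.05), summed to 3.44 to 7.26 FPKM in R against 1.90 to 2.71 FPKM in vehicle. Of these 8, 6 had every R library above every vehicle library, against 9.21% of all genes above 0 in at least 1 library. For T and NK cells 12 markers were listed, 3 tested and 1 (Nkg7) fell, against 4.43% of all tested genes. Nkg7 and Trbc2 had every R library below every vehicle library, against 15.5% of all tested genes. Cd4, the third, had every R library above (log2 change 0.64), against 13.9%. Of all 12 listed, tested or not, 7 had every R library below and 1 above. Among all genes above 0 in at least 1 library these shares were 10.2% and 9.21%. The 12 markers summed to 3.06 to 8.03 FPKM in R against 8.34 to 15.0 FPKM in vehicle.

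Prrx1, a homeodomain gene of limb and marrow mesenchyme, stood at 12.7, 14.1 and 19.8 FPKM in R and at 9.0, 11.2 and 10.8 FPKM in vehicle (log2 change 0.53, limma adjusted p = 0.109). Divided by Prrx1 of the same library, a ratio chosen after the values were seen, Hoxc13 was 0.48, 0.43 and 0.31 in R and 0.41, 0.37 and 0.22 in vehicle. Those ratios overlapped. After this division 0 of 15 tested members had every R library above every vehicle library, against 0.658% of all tested genes, and 1, Hoxa6, had every R library below, against 58.4%. Prrx1 was itself higher in every R library, so that few genes could stand above after the division. Divided by the geometric mean of 17 patterning factors the counts were 0, against 0.666% of all tested genes, and 1, Hoxc9, against 12.9%. These 17 include Prrx1 and all had a positive log2 change, so here too few genes could stand above.

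**Figure D5:**
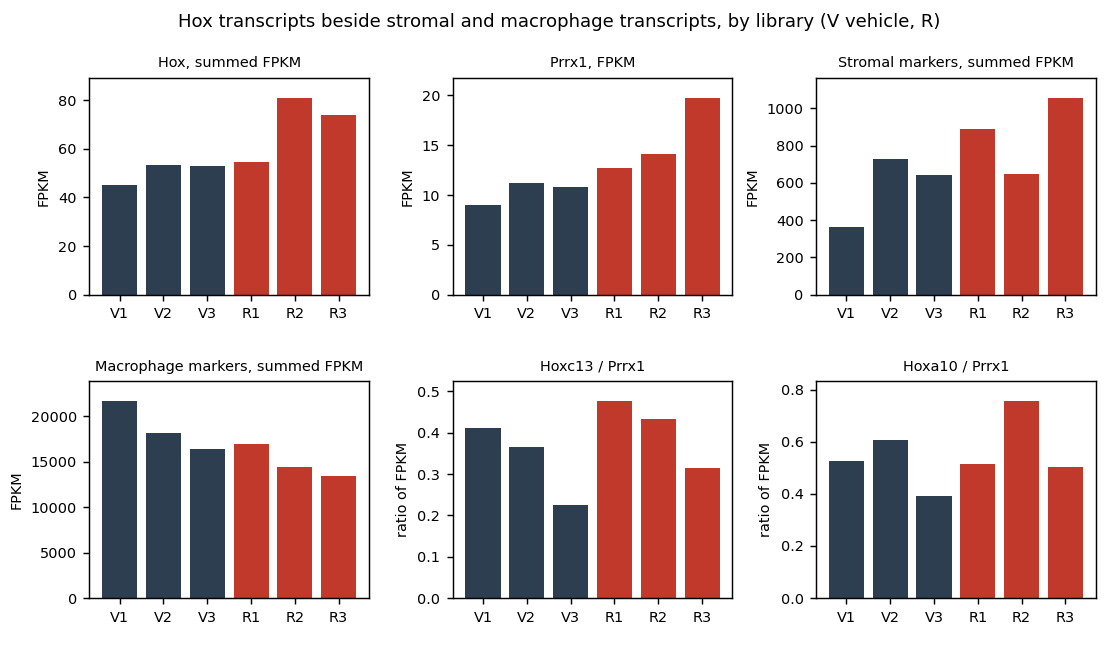
Summed FPKM of all Hox genes, of stromal and of macrophage markers, FPKM of Prrx1, and Hoxc13 and Hoxa10 divided by Prrx1, with 1 bar for each library (V vehicle, R). The Hox sums and Prrx1 are higher in every R library, while the macrophage sums, the stromal sums and both ratios overlap between the groups.

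The partners and regulators of Hox proteins showed small differences. Hox proteins bind DNA together with TALE homeodomain partners of the Pbx, Meis and Pknox families. Of 9 listed partners 5 were tested, and 0 passed in limma (0 at an unadjusted p of 0.05). Pbx2 was the highest, at 18.1, 17.9 and 16.3 FPKM in R and 16.6, 17.7 and 14.2 FPKM in vehicle, and the groups overlapped. Pbx3 and Meis3 had log2 changes of 0.19 and 0.08, while Meis1 and Meis2 did not exceed 0.573 FPKM.

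Polycomb proteins keep silent Hox genes shut and trithorax proteins keep active ones open. All 26 listed regulators were tested and 0 passed in limma (3 at an unadjusted p of 0.05), with a median log2 change of -0.0072. Jarid2, which helps to bring the Polycomb repressive complex to its targets, had 2.16, 1.79 and 2.15 FPKM in R and 2.94, 3.19 and 2.67 FPKM in vehicle (log2 change -0.37, limma adjusted p = 0.0904). The catalytic subunit Ezh2 (log2 change -0.28, limma adjusted p = 0.118) and its partner Suz12 (-0.27, 0.125) likewise had every R library below every vehicle library. These were 3 of 26, against 15.5% of all tested genes. Cbx8, of the other Polycomb complex (log2 change 0.24, limma adjusted p = 0.279), and Phc2 had every R library above, 2 of 26 against 13.9%.

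Retinoic acid is the classic inducer of low-numbered Hox genes. Of 17 listed pathway genes 9 were tested and 0 passed in limma (2 at an unadjusted p of 0.05). Rdh10, which makes the precursor of retinoic acid, had 5.97, 5.96 and 6.34 FPKM in R and 3.62, 4.66 and 5.08 FPKM in vehicle (log2 change 0.39, limma adjusted p = 0.105). The groups did not overlap. Cyp26b1, which degrades retinoic acid, had a log2 change of 1.06 (limma adjusted p = 0.18) with overlapping groups. The receptors Rxra and Rara had changes of 0.16 and 0.15. Rdh10 and Rxra had every R library above every vehicle library, 2 of 9 against 13.9% of all tested genes.

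Among 36 limb and regional patterning factors 17 were tested, all with a positive log2 change and a median of 0.44, against 49.3% positive and a median of -0.0037 over all tested genes. Of the 17, 1 passed, against 2.39% of all tested genes called higher. Msx2, a homeodomain gene of limb and bone, was the one that rose, from 1.07, 1.37 and 1.36 FPKM in vehicle to 2.51, 3.54 and 2.62 FPKM in R (log2 change 0.77, SE 0.14, limma adjusted p = 0.0227). Its call ended without the filter (0.0878) and when R replicate 2 (0.0539), vehicle replicate 1 (0.0856) or vehicle replicate 2 (0.0644) was left out. The other 16 did not pass.

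Of 17 genes reported as Hox targets in limb and bone 7 were tested and 0 passed in limma (2 at an unadjusted p of 0.05). Grem1, a secreted BMP antagonist, had 66.0, 60.4 and 108 FPKM in R and 47.8, 28.2 and 53.9 FPKM in vehicle (log2 change 0.84, limma adjusted p = 0.136), and the groups did not overlap. It was 1 of 7 tested with every R library above every vehicle library, near the 13.9% of all tested genes. Gdnf, Sfrp1 and Bmp2 had log2 changes of 0.42, -1.15 and -0.36 with overlapping groups. Of the 17 noncoding genes listed for the clusters, Hotairm1 was the one high enough to be tested, at 1.57, 2.01 and 1.30 FPKM in R and 1.14, 1.25 and 1.37 FPKM in vehicle (log2 change 0.21, limma adjusted p = 0.40). The Evx and ParaHox genes next to or related to the clusters had none at a level to be tested.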

How the data were processed

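Values are FPKM that the authors computed and deposited in 1 table of all genes. The submitters' processing notes name GRCm38, mm10 and edgeR 3.18.1. The aligner, counter, annotation and strandedness are not given in the sources used. Of 49328 listed genes, 49281 were given symbols from GENCODE M21; 6169 of its 55450 genes were not analysed here, and 1 broken line was left out. FPKM multiplied by exon length gave whole reads for 98.3% to 98.4% of low values (tolerance 0.02 reads), from which depth and reads per gene were estimated. Read numbers cover counting error only.

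The test was limma 3.58.1 (R 4.3.3) on log2(FPKM + 1), with the 2 groups as terms and a trended prior, for 11862 genes with at least 1 FPKM in at least 3 of 6 libraries. P-values were adjusted over those genes (Benjamini-Hochberg, threshold 0.05). This scale understates changes of low genes. On simulated reads of 11635 genes the test recovered 12% of changes of 1.5-fold and 92% at 2-fold, 98% at 4-fold and 100% at 8-fold. Of its 171 calls 20 were false. The simulation set the variation between replicates at a dispersion of 0.02 for every gene. Some Hox genes varied more, such as Hoxc12 in vehicle (mean 4.23, SD 2.86 FPKM), and for such genes the recovery is overstated. Promoters, microRNAs and their matches came from RefSeq (GRCm38.p6), 3′ UTRs from GENCODE M21.

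Whether replicates are separate animals or cultures is not labelled, and p-values then measure only the spread of these samples, which may be technical. Members, lists and the naming rule were chosen with earlier results of these data known. Each Hox gene was counted, but the values of some genes are not reported here. From each pathway list the genes past the threshold were named, or else up to 4 with the smallest p, and from marker lists the 2 highest; Pitx1, Tbx4, Tbx5, Prrx1 and further markers were chosen after their values were seen. The 14 alternatives were other pseudocounts, filters and scalings, no trend, the replicate number as block and each library left out.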

Additional observations from a re-analysis of the deposited data

How the results depend on the processing

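Of all tested genes 809 passed in limma (284 higher and 525 lower), against 344 with no filter on low values and 337 to 879 when 1 library was left out. Of the Hox members 1 passed, against 0 with no filter (5 at an unadjusted p of 0.05), 0 with the replicate number as a block (6 at an unadjusted p of 0.05) and 0 to 1 when 1 library was left out. Hoxc13 kept its direction in 14 of 14 alternatives and passed in 7 of them (limma adjusted p of 0.0305 to 0.116; 0.0515 with the block), while Hoxa10 passed in 0 of 14. Hoxa11 passed in 1 of 13, without R replicate 1. The deviations of same-numbered samples correlated at 0.14, -0.01 and -0.03, so the numbers were not taken as pairs; with the block the count over all genes was 756. Of the patterning factors 1 passed, against 0 with no filter, 0 with the stricter filter of 5 FPKM, 4 with the block and 0 to 1 with a library left out. Of the reported Hox targets 0 passed, and 1, Grem1, with the block (limma adjusted p = 0.0338). The mean number of Hox members counted as present per library was 14.5 at 1 FPKM, 18.5 at 0.5 FPKM, 3.17 at 5 FPKM and 28.3 at 3 reads. With 1 library left out the log2 change turned sign for Hoxa6 (-0.28 to 0.20, positive without R replicate 1), Hoxc6 (-0.25 to 0.39, negative without R replicate 3 or vehicle replicate 1), Hoxc9 (-0.12 to 0.29, negative when R replicate 2 or 3 or vehicle replicate 1 was dropped) and Hoxc12 (-0.23 to 0.57, negative without vehicle replicate 3). Hoxc9 was also at -0.0016 with a pseudocount of 0.1. With quantile scaling and with equal medians 14 of 15 members were above 0, with medians of 0.36 and 0.38. The cause was not tested. Hoxd1, Hoxd11, Hoxd12 and Hoxd13, listed at 0, had no counted read, and very low levels could be missed at this depth.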

Other observations

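Ratios between Hox genes of the same library, chosen after their values were seen and not tested, set the level of a member beside that of another. Hoxa10 divided by Hoxc10 was 0.75, 0.73 and 0.79 in R and 0.70, 0.70 and 0.38 in vehicle, and vehicle replicate 3 was lowest. The groups did not overlap, but the lowest R ratio, 0.730, was close to the highest vehicle ratio, 0.704. How often ratios of other genes stand apart was not counted. Hoxc13 divided by Hoxc10 was 0.69, 0.42 and 0.49 in R and 0.55, 0.42 and 0.22 in vehicle, and Hoxa11 divided by Hoxa10 was 0.47, 0.70 and 0.67 in R and 0.69, 0.49 and 0.65 in vehicle. Both of these ratios overlapped between the groups, as did Hoxc6 divided by Hoxc10. Among the antisense and noncoding genes of the clusters, Hoxa11os had 0.643, 1.52 and 0.774 FPKM in R and 0.667, 0.712 and 0.472 FPKM in vehicle, highest in the library in which Hoxa11 was also highest. Hotair, which lies between Hoxc11 and Hoxc12, did not exceed 0.166 FPKM.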
